A study of Mus musculus with 4 samples.

Results

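The CC chemokines described here are Ccl2, Ccl3, Ccl4, Ccl5, Ccl7, Ccl9, Ccl12, Ccl17, Ccl22 and Ccl24, a group of 10 genes chosen by name. Every probe set whose platform annotation names 1 gene, and that gene one of these, was taken, which gave 11 of the 45037 probe sets on the array: 2 for Ccl9 and 1 for each other gene. All 11 were bright enough to be tested, as were 27022 probe sets in all, those whose signals averaged 69.6 or more. The arrays measured total RNA of mouse macrophages grown from bone marrow for 7 days with 20% L-cell conditioned medium, plated overnight without that medium, and primed overnight with 100 U/ml interferon-gamma. The LPS group, 2 arrays, was washed after 16 h of priming and given 10 ng/ml lipopolysaccharide (LPS, a bacterial cell wall component sensed by TLR4), with 2 h of stimulation. The LPS plus immune complexes group (LPS_IC), also 2 arrays, was washed and given the same dose of LPS with immune complexes, antigen bound by antibody, for 2 h. Both groups thus carry interferon-gamma priming and LPS, and no unstimulated sample was analysed here, so every difference below is one between stimulations. The labels name neither strain, sex, age nor genotype, nor whether the replicates were separate cultures, so p-values here rest on a spread between arrays that could be purely technical.

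Chemokines are small secreted proteins that direct the movement of leukocytes through receptors coupled to G proteins. In the CC class the first conserved cysteines of the protein are adjacent, and the genes lie largely in clusters that arose by duplication. Macrophages are a main source of them: bacterial products induce ligands for monocytes, T cells and neutrophils within hours, while Ccl17, Ccl22 and Ccl24 are better known from cells exposed to interleukin-4.

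Most of these genes are neighbours on mouse chromosome 11, in the gene order of RefSeq's table for GRCm38.p6. Ccl2, Ccl7, Ccl11, Ccl12, Ccl8 and Ccl1 follow each other with no other coding gene between them. After 25 other coding genes come Ccl5, Ccl9, Ccl6, Ccl3 and Ccl4, again with no other coding gene between them. Ccl22 and Ccl17 lie on chromosome 8 with 1 coding gene, Cx3cl1, between them, and Ccl24 lies on chromosome 5.

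RefSeq promoter sequences of GRCm38.p6 were matched for 5 of the 10 genes: Ccl3, Ccl9, Ccl12, Ccl17 and Ccl22. The 250 bases upstream of the start site are printed for 3 of them, because they stand for the 3 patterns in the data: Ccl12 was higher on both arrays with immune complexes, Ccl9 was lower on both of them at 1 of its probe sets, and Ccl3 differed little. Capitals mark matches, on either strand, to the NF-kB consensus, the AP-1 motif TGANTCA, the STAT motif TTCNNNGAA, the PU.1 core GAGGAA and the TATA motif TATAAA. The Ccl12 stretch is chr11:82101595-82101844 on the plus strand, Ccl9 is chr11:83578637-83578886 and Ccl3 is chr11:83649379-83649628, both on the minus strand.
Ccl12: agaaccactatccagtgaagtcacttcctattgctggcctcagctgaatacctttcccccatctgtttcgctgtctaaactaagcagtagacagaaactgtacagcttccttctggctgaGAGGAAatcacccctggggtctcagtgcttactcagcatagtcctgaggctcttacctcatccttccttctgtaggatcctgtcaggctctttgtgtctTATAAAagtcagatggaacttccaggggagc
Ccl9: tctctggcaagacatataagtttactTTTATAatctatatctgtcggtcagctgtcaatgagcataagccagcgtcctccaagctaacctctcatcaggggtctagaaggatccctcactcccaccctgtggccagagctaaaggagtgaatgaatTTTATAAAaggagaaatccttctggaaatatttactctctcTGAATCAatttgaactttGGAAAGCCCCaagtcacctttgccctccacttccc
Ccl3: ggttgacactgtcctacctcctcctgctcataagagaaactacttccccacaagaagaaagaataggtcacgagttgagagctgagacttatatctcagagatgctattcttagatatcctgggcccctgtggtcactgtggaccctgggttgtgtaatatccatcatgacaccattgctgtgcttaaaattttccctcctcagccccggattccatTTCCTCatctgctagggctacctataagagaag

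In Ccl9 the NF-kB match GGAAAGCCCC, read on the strand opposite to the gene, lies 35 to 26 bases upstream and the AP-1 match TGAATCA lies 53 to 47 bases upstream. Among all 32851 promoters of the table, 3.9% hold the NF-kB consensus in the same window and 6.75% hold the AP-1 motif. Ccl12 holds TATAAA 31 to 26 bases upstream, as do 12.4% of all promoters somewhere in the window, and GAGGAA 130 to 125 bases upstream, which 23.3% hold. Ccl3 holds GAGGAA on the opposite strand, and Ccl9 holds 3 TATA matches, of which the pair nearest the start overlap on opposite strands. The STAT motif, held by 7.02% of all promoters, was in none of the 3 printed stretches. A match is a string of letters and not evidence of binding, and a missing match says only that these letters are not in this window.

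The 4 arrays differed in their low signals. The median signal was 155.8 on the first array with immune complexes against 68.4 to 88.6 on the other 3, although MAS 5.0 had scaled all arrays to a trimmed mean of 500. All 8 macrophage markers were bright enough to test. Their summed signal, to which the brightest add most, was 152218.8 to 186681 with LPS and 133083.4 to 150409.9 with immune complexes. Cd14 and Lyz2 were lower without overlap, 25% of these markers beside 13.1% of all tested genes. The groups overlapped for Adgre1, Csf1r, Fcgr1, Mertk, Cd68 and Itgam. Of these, Cd68 and Itgam had log2 fold changes above 0, at 0.16 and 0.07. Of the markers of other cells, 24 of the 44 analysed were bright enough to test, beside 12891 of the 18193 genes with a probe set of their own. The lymphocyte genes Cd3e, Cd3g, Cd4, Ms4a1 and Gzma were not. The summed signal of the 5 T cell markers measured was 145.7 to 348.6 with LPS and 493.2 to 846.5 with immune complexes, and that of the 6 neutrophil markers 920.3 to 952.4 and 1530.9 to 1568.4. The brightest neutrophil marker was S100a8, at 540.8 and 504.7 with LPS against 871.3 and 1137.6 on the LPS_IC arrays. Elane, too dim to test, was also higher on both LPS_IC arrays. Mpo was lower on both, and the groups overlapped for Ngp, Camp and S100a9. Both tested T cell markers were higher without overlap, as were 13.2% of all tested genes, and did not pass. Cd8a read 23.6 and 41.6 with LPS against 255.1 and 89.6 on the LPS_IC arrays (log2 fold change 1.55 ± 0.84, limma adjusted p = 1). Its LPS readings were under the cut of 69.6, so it was bright enough to test only through the LPS_IC arrays. Cd28 read 72.2 and 172.2 against 315.5 and 288.8, a log2 fold change of 1.19 ± 0.52 (limma unadjusted p = 0.0409, adjusted p = 1). Of the T cell markers too dim to test, Cd3e and Cd3g overlapped between the groups and Cd4 was higher on both LPS_IC arrays. The groups overlapped for the tested B cell and NK cell markers Cd79a, Cd79b, Pax5 and Prf1. The summed signals of the dendritic cell, B cell, NK cell, mast cell, eosinophil, fibroblast and endothelial markers overlapped between the groups. The part of these shifts in the chemokine values was not tested, and in bulk RNA fewer cells of a type and less RNA per cell cannot be told apart.

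The series compares classical activation by LPS with activation by LPS and immune complexes. Ccl2 and Ccl7, which attract monocytes, had signals 2.24 and 2.84 times as high with immune complexes, and Ccl12 had 1.35 times. Ccl3 and Ccl4 were lower by only 1.02 and 1.13 times, and Ccl5 and Ccl9 were lower by 1.25 to 1.5 times. Ccl24, an eosinophil attractant, was 2.82 times lower. All these folds were taken from log2 fold changes with a pseudocount of 32 added to each signal. The size for the dim Ccl24 depended on the amount added. None of the 11 probe sets passed limma at a Benjamini-Hochberg adjusted p of 0.05 over all 27022 tested, where 0.0444% of probe sets passed on the higher side and 0.0074% on the lower. With median centring of the arrays those calls over all probe sets were 33 higher and 14 lower, against 12 and 2 without it, again with no chemokine. At an unadjusted limma p under 0.05, 2 chemokine probe sets were on the higher side, Ccl2 and Ccl7, beside 1.86% of all tested. On the lower side were 2, Ccl24 and one of Ccl9, beside 0.947%. With median centring Ccl7 and Ccl24 stayed under that limit. Ccl2 (limma unadjusted p = 0.0634) and that Ccl9 probe set (limma unadjusted p = 0.107) then did not. An exact permutation test of 2 arrays against 2 cannot go below p = 0.333 (two-sided).

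The groups did not overlap at 7 of the 11 chemokine probe sets. At 3 of them, those of Ccl2, Ccl7 and Ccl12, both arrays with immune complexes were above both LPS arrays, as at 13.6% of all tested probe sets. At 4, those of Ccl4, Ccl5, Ccl24 and one of Ccl9, both were below, as at 12.0% of all. No chemokine probe set differed at least 2-fold in all 4 pairs of arrays, a size that 0.755% of all probe sets reached upward and 0.185% downward. Ccl2 fell just short, at 1.98-fold between the arrays of replicate 1. The median log2 fold change over the 10 genes was -0.04, beside 0.05 over the 12891 tested genes. With quantile normalization these medians were 0.1 and -0.02, so the sign of the chemokine median depended on the scaling.

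**Figure D1:**
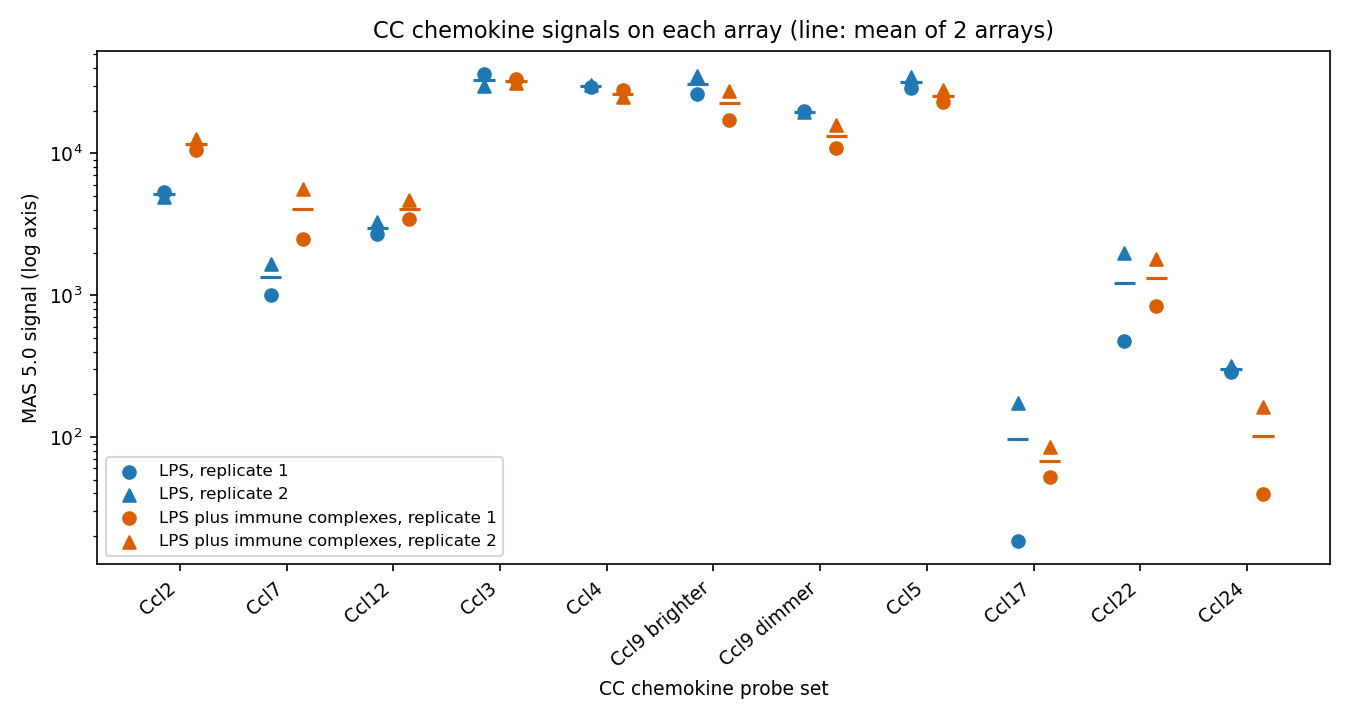
MAS 5.0 signal (log axis) of each CC chemokine probe set on the 2 LPS arrays (blue) and the 2 arrays with immune complexes (orange), circles for replicate 1, triangles for replicate 2 and a line at the mean of the 2 arrays. Ccl2, Ccl7 and Ccl12 lie higher on both orange arrays, Ccl3 and Ccl4 differ little, and the Ccl17 and Ccl22 arrays spread more within a group than between groups.

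The monocyte chemoattractants Ccl2, Ccl7 and Ccl12 share the receptor Ccr2, through which monocytes leave the bone marrow and enter inflamed tissue. Ccl2 read 5339.3 and 4939.4 on the LPS arrays, against 10556.4 and 12574.8 on the LPS_IC arrays, replicates 1 and 2 in that order as in all sentences below. The readings within each group lay close together and the groups were far apart. The means were 5139.4 ± 282.8 and 11565.6 ± 1427.2 (SD, n = 2), a log2 fold change of 1.16 ± 0.28 (limma SE), with an unadjusted p of 0.0013 and an adjusted p of 0.307. Its interval of 0.56 to 1.77 (95%, unadjusted for the number of probe sets) spans 1.47-fold to 3.4-fold. By its limma p-value Ccl2 ranked 114 of 27022 probe sets. With any of the 4 arrays left out its log2 fold change lay between 1.03 and 1.29. With median centring it was 0.96, with an interval of -0.05 to 1.98.

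Ccl7, which acts on several CC receptors besides Ccr2, gave 1008.4 and 1663.7 on the LPS arrays, against 2478.8 and 5616.6 on the LPS_IC arrays. Replicate 2 was the higher array in both groups, and the lowest reading with immune complexes still exceeded the highest with LPS. Within replicate numbers the signal with immune complexes was 2.46 and 3.38 times that with LPS. The log2 fold change was 1.5 ± 0.43 (limma adjusted p = 0.663, unadjusted p = 0.00481). Without LPS replicate 2 it was 1.86 (limma adjusted p = 0.011), a fit that takes the spread of its single LPS array from the LPS_IC arrays and that called 0.285% of all probe sets higher, while without the other arrays in turn it lay between 0.92 and 2.09 and did not pass.

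Ccl12, a chemokine of mice close to Ccl2, gave 2715.9 and 3260.1 on the LPS arrays, against 3437.1 and 4707.5 on the LPS_IC arrays. The groups were set apart by a small margin, since the lower array with immune complexes exceeded the higher LPS array by 0.08 on the log2 scale. The log2 fold change was 0.43 ± 0.33 with an interval of -0.29 to 1.15, which spans 0.821 to 2.21 times the LPS signal (limma adjusted p = 1). With median centring it was 0.23 and the groups overlapped, and with single arrays left out it lay between 0.21 (without LPS_IC replicate 2) and 0.66 (without LPS_IC replicate 1).

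The macrophage inflammatory proteins Ccl3 and Ccl4 attract monocytes, T cells and NK cells, and Ccr1 is a receptor of Ccl3. Ccl3 gave 36290.1 and 29952.2 on the LPS arrays, against 33422.9 and 31315.2 on the LPS_IC arrays, so both arrays with immune complexes lay between the LPS arrays. Its log2 fold change was -0.03 ± 0.22, with an interval of -0.5 to 0.45. In fold terms that interval runs from 0.707 to 1.36 times the LPS signal. The sign of this value turned to 0.18 with quantile normalization, to 0.11 without LPS replicate 1 and to 0.02 without LPS_IC replicate 2.

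Ccl4 gave 29400.9 and 30358.8 on the LPS arrays, against 27866.9 and 24873.6 on the LPS_IC arrays. The groups did not overlap, yet the means, 29879.8 ± 677.3 and 26370.2 ± 2116.6, differed by a log2 fold change of only -0.18 ± 0.22, within an interval of -0.66 to 0.29. With quantile normalization the value was 0.01 and the groups overlapped. All readings of Ccl3, Ccl4, Ccl5 and Ccl9 lay at or above the 98.6th percentile of their array. Whether such bright probe sets still respond in proportion to transcript level was not tested.

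Ccl9, a ligand of Ccr1 that resting macrophages also make, has 2 probe sets, and they are shown separately. The dimmer probe set gave 20061.2 and 19445.8 on the LPS arrays, against 10953.3 and 15763.3 on the LPS_IC arrays. Both arrays with immune complexes lay below both LPS arrays. The log2 fold change was -0.59 ± 0.26 (limma unadjusted p = 0.0445, adjusted p = 1). The brighter probe set gave 26149.3 and 35218.1 on the LPS arrays, against 17323.7 and 27735.8 on the LPS_IC arrays. Here the groups overlapped, since the second array with immune complexes exceeded the first LPS array, and the log2 fold change was -0.47 ± 0.27. Both probe sets were lower with immune complexes within each replicate number, at 0.546 and 0.811 times the LPS signal for the dimmer one and 0.662 and 0.788 times for the brighter one. With quantile normalization the dimmer one had -0.44 and the brighter one -0.24. Leaving out LPS_IC replicate 1, whose low signals were raised, the dimmer one had -0.32 and the brighter one -0.13. Leaving out LPS_IC replicate 2 they had -0.85 and -0.81, and neither then overlapped.

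Ccl5 attracts T cells, monocytes and eosinophils and is induced by interferons as well as by NF-kB. It gave 29153.7 and 34766 on the LPS arrays, against 23002.6 and 28112.4 on the LPS_IC arrays. Each array with immune complexes was below both LPS arrays, at 0.789 and 0.809 times the LPS array of the same number. The log2 fold change was -0.32 ± 0.23 with an interval of -0.82 to 0.17 (limma adjusted p = 1), and -0.1 with quantile normalization. With single arrays left out it lay between -0.47 (without LPS_IC replicate 2) and -0.18 (without LPS_IC replicate 1). The lower end of that interval is 0.566 times the LPS signal.

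Ccl17 and Ccl22 act on Ccr4, a receptor of Th2 and regulatory T cells. Ccl22 gave 478.9 and 1972.7 on the LPS arrays, against 838.1 and 1798.4 on the LPS_IC arrays. The arrays of replicate 2 were high in both groups and those of replicate 1 low, and both readings with immune complexes fell between the LPS readings. Replicate 2 exceeded replicate 1 by 1.97 on the log2 scale with LPS and by 1.07 with immune complexes, while the difference between stimulations was 0.32 ± 0.59. That difference changed sign to -0.67 without LPS replicate 1 and to -0.22 without LPS_IC replicate 2, and was 1.30 without LPS replicate 2. Without LPS_IC replicate 1 it was 0.85.

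Ccl17 gave 18.6 and 175 on the LPS arrays, against 52 and 84.5 on the LPS_IC arrays. These readings lay at the 18.5th and 65.4th percentiles of the LPS arrays and the 18.3rd and 54.3rd of the LPS_IC arrays. Again the readings with immune complexes lay inside the LPS range, and replicate 2 was the higher array in each group. The log2 fold change of -0.05 ± 0.96 has an interval from -2.15 to 2.05, which spans 0.225 to 4.15 times the LPS value with 32 added to each signal. With a pseudocount of 1 in place of 32 the log2 fold change turned to 0.20, with a wider interval of -3.02 to 3.41. Its sign also turned to 0.97 without LPS replicate 2 and to 0.19 without LPS_IC replicate 1, and it was -1.07 without LPS replicate 1.

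Ccl24, which attracts eosinophils through Ccr3, gave 286.4 and 316.6 on the LPS arrays, against 39.9 and 161.9 on the LPS_IC arrays. The LPS readings lay close together, and both readings with immune complexes were below them but far apart from each other. The means were 301.5 ± 21.4 and 100.9 ± 86.3, a log2 fold change of -1.5 ± 0.59 (limma unadjusted p = 0.0253, adjusted p = 1). On the first array with immune complexes, the one with the highest low signals, Ccl24 was at the 11.5th percentile of all probe sets, against the 65th to 73.4th on the other 3 arrays. Without that array the value was -0.78, and without the second array with immune complexes -2.21. Over all arrays the size also rested on the pseudocount. The log2 fold change was -1.89 with a pseudocount of 1 and -1.07 with a pseudocount of 100, in place of 32.

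**Figure D2:**
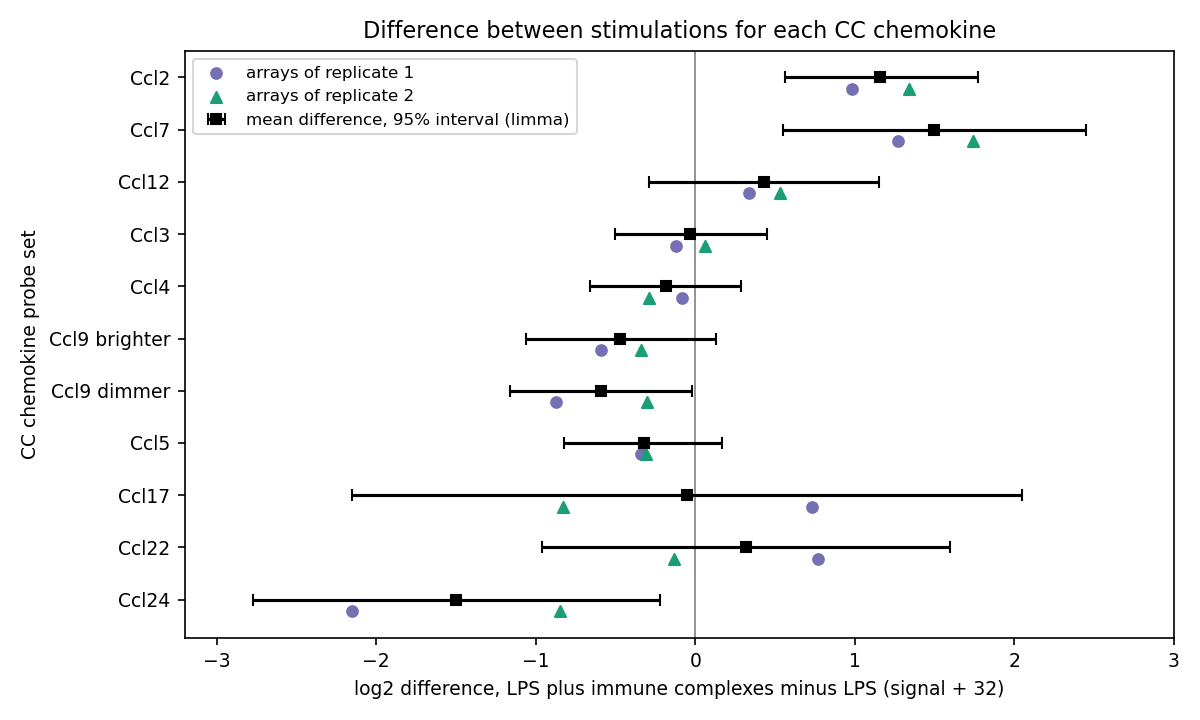
Log2 difference, LPS plus immune complexes minus LPS, for each CC chemokine probe set: squares with 95% limma intervals over the 4 arrays, circles and triangles for the arrays of replicates 1 and 2. The intervals of Ccl2 and Ccl7 lie above 0, those of Ccl24 and the dimmer Ccl9 probe set below 0, and those of Ccl17 and Ccl22 are wide, with replicates on opposite sides of 0.

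Among the chromosome 11 genes, the higher values lay in the first group and not throughout it. Ccl2, Ccl7 and Ccl12 had log2 fold changes of 1.16, 1.5 and 0.43, whereas Ccl8, of that group too, had -0.07 ± 0.37. Ccl8 gave 2635.4 and 4241.7 on the LPS arrays, against 2496.1 and 4079.3 on the LPS_IC arrays. For Ccl8 replicate 2 was the higher array in both groups, and the interval of its difference between stimulations was -0.88 to 0.74. Ccl11 and Ccl1 of the same group were not bright enough to test. In the second group all 5 genes had values between -0.47 and -0.03 by their brightest probe sets, including Ccl6, a Ccr1 ligand made by macrophages, which gave 9596.7 and 15604.8 on the LPS arrays, against 6973.1 and 14153 on the LPS_IC arrays (-0.30 ± 0.36). The difference between the gene groups was not tested, and with quantile normalization the Ccl3 and Ccl4 values turned to 0.18 and 0.01.

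**Figure D3:**
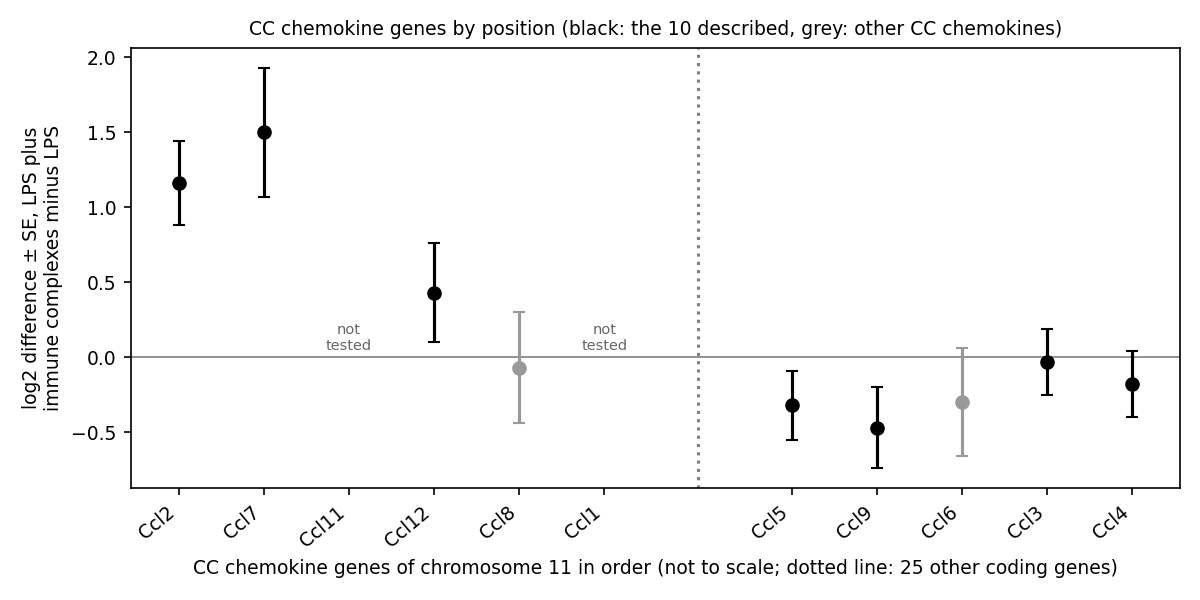
Log2 difference ± SE, LPS plus immune complexes minus LPS, of the CC chemokine genes of chromosome 11 in gene order, by the brightest probe set of each gene. Ccl2 and Ccl7 stand highest at 1.16 and 1.5 and the 5 genes from Ccl5 to Ccl4 lie between -0.47 and -0.03.

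Of the 14 other CC chemokines listed, 8 had a probe set of their own and 5 were tested, and none passed. Besides Ccl6 and Ccl8 these were the epithelial chemokines Ccl25, Ccl27a and Ccl28, all dim. Ccl28 gave 110 and 101.1 on the LPS arrays, against 366 and 117.1 on the LPS_IC arrays, so its value of 0.83 ± 0.60 came mainly from the first array with immune complexes. Ccl25 had -0.23 ± 0.67 and Ccl27a 0.35 ± 1.28. Ccl1, Ccl11 and Ccl20 gave no reading above 82.1 on any array.

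Among the receptors of CC chemokines and their decoys 9 were tested and none passed, with a median log2 fold change of 0.11. Ccr1, the receptor of Ccl3, Ccl5 and Ccl9, gave 1019.4 and 1029.5 on the LPS arrays, against 1757.6 and 2710.3 on the LPS_IC arrays. Both arrays with immune complexes were above both LPS arrays, with a log2 fold change of 1.07 ± 0.37 (limma unadjusted p = 0.0144, adjusted p = 1). By the brightest probe set of each gene, Ccr1 was the only tested receptor whose groups did not overlap, beside 13.2% of all tested genes higher and 13.1% lower without overlap. A dimmer Ccr1 probe set gave 41.2 and 142.2 on the LPS arrays, against 122.4 and 400 on the LPS_IC arrays. There the groups overlapped, with a log2 fold change of 1.19 ± 0.68. Ccr2, the receptor of Ccl2, Ccl7 and Ccl12, gave 1186.7 and 2598.6 on the LPS arrays, against 1138.9 and 3018.2 on the LPS_IC arrays. Replicate 2 was the higher array in both groups, and the difference between stimulations was 0.08 ± 0.50, with an interval of -1.01 to 1.17.

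Of 16 tested genes that carry or end the signal of these receptors, none passed and the median was -0.21. Rgs1, which shortens signalling by G proteins, gave 8728.8 and 7748.9 on the LPS arrays, against 14249.7 and 14961.9 on the LPS_IC arrays, and the log2 fold change was 0.83 ± 0.26 (limma unadjusted p = 0.00771, adjusted p = 0.863). Rac2, a GTPase of leukocyte migration, had -0.47 ± 0.29. Rgs1 was the only gene of this list higher without overlap and Rac2 the only one lower, 6.25% each, beside 13.2% and 13.1% of all tested genes.

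Of 9 tested proteases that trim or shed chemokines none passed, with a median of 0.01. Mmp12, the macrophage elastase, gave 204.1 and 453.1 on the LPS arrays, against 760 and 1091.5 on the LPS_IC arrays, and the log2 fold change was 1.48 ± 0.46 (limma unadjusted p = 0.00765, adjusted p = 0.861). Mmp14, a membrane-bound matrix protease, gave 5549.8 and 4017 on the LPS arrays, against 2689.9 and 2320.5 on the LPS_IC arrays, and the log2 fold change was -0.91 ± 0.33 (limma adjusted p = 1). Both were named as the largest rise and fall without overlap of the groups, so their lack of overlap was fixed by that choice. In this list 22.2% of genes were higher without overlap and 11.1% lower, beside 13.2% and 13.1% of all tested genes.

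Of 20 tested regulators of CC chemokine transcripts none passed, and their median was -0.08. Irf4, a transcription factor of type 2 macrophage responses, had the largest value, 2.14 ± 0.76, with 20.5 and 363.1 on the LPS arrays, against 433.7 and 834.5 on the LPS_IC arrays (limma adjusted p = 1). The LPS readings were far apart, and the lowest with immune complexes exceeded both. Irf8, a myeloid factor induced by interferon-gamma, gave 15783.5 and 17641 on the LPS arrays, against 8089.4 and 12960.5 on the LPS_IC arrays, and the log2 fold change was -0.70 ± 0.29 (limma adjusted p = 1). Irf4 and Irf8 were named as the largest rise and fall without overlap of the groups, so their lack of overlap was fixed by that choice. Among these regulators 30% were higher without overlap and 20% lower, beside 13.2% and 13.1% of all tested genes. Over these 5 lists together 0 of 59 tested genes passed limma at an adjusted p of 0.05, beside 0.0621% of all tested genes. At an unadjusted p under 0.05 there were 6 on the higher side and 2 on the lower, beside 1.99% and 1.14% of all.

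**Figure D4:**
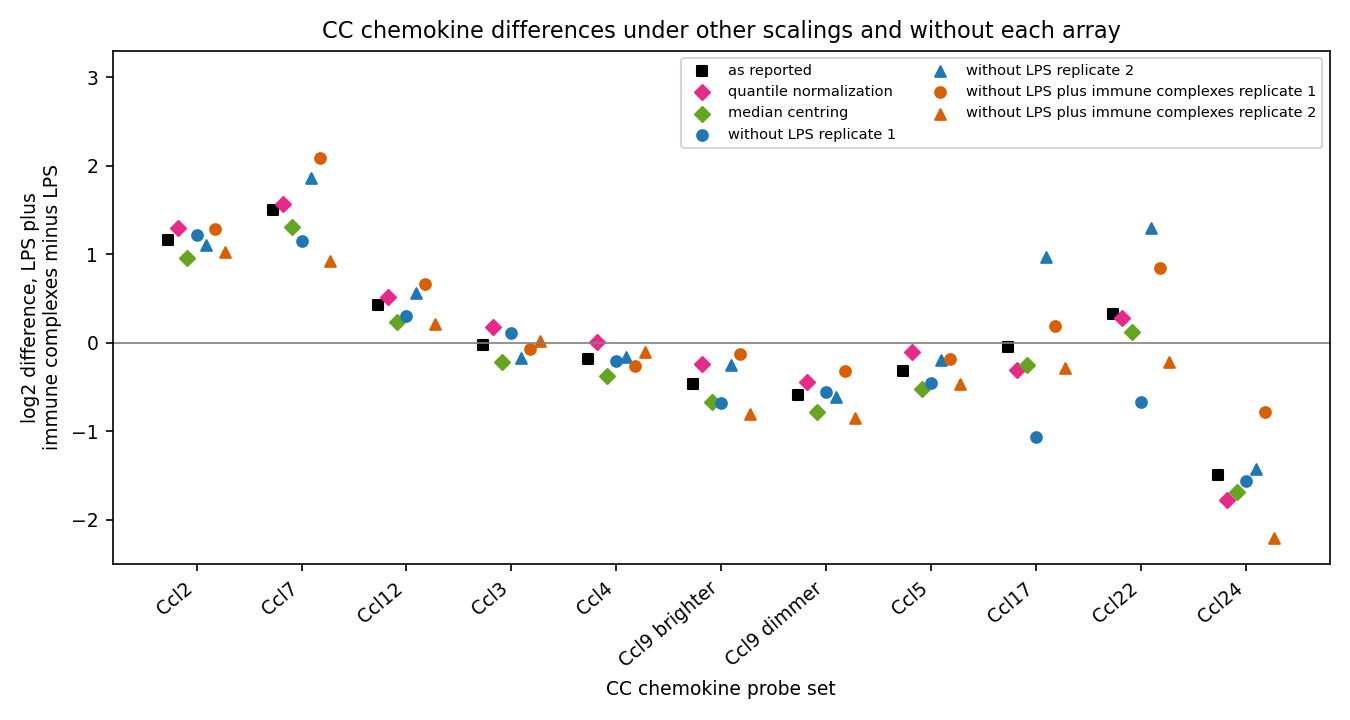
Log2 difference, LPS plus immune complexes minus LPS, of each CC chemokine probe set as reported (black), under 2 other scalings (diamonds) and without each array in turn. Ccl2 and Ccl7 stay above 0 and Ccl24, Ccl5 and both Ccl9 probe sets below 0 in all points shown, while Ccl3, Ccl4, Ccl17 and Ccl22 have points on both sides.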

How the data were processed

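The authors' deposited values are linear intensities from MAS 5.0 (per the submitters' processing notes), a signal for each probe set on each array. MAS 5.0 scales each array as a whole, which leaves low signals uneven between arrays, and detection calls were not used here. Probe sets were named by the platform annotation in GEO. All 10 gene IDs matched RefSeq's table. Sample titles gave the groups and replicate numbers.

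The scale of all tests was log2(signal + 32), which understates differences of dim probe sets. The 64 controls and probe sets with a mean signal under the 40th percentile were left out. The stimulations were compared with limma 3.58.1 under R 4.3.3, with a variance trend, no block and two-sided moderated tests, adjusted by Benjamini-Hochberg over the 27022 probe sets tested. The method was tested on simulated data. Outside the 10 genes, a gene took its brightest tested probe set. All other CC chemokines were named, and of each further list the largest rise and fall without overlap of the groups. The genes and lists were chosen with earlier results of these data known.

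Alternatives were other scalings, pseudocounts and filters, no variance trend, a replicate block, an adjusted p of 0.1, a 1.5-fold count and each array left out. Listed genes with no probe set of their own were not analysed here.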

Additional observations from a re-analysis of the deposited data

How the results depend on the processing

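None of the 10 genes passed under other scalings, pseudocounts, filters, without the variance trend or at an adjusted p of 0.1. The replicate number as a block changed that: limma then called 2 chemokine probe sets higher, Ccl2 (1.16, adjusted p = 2.63e-08) and Ccl7 (1.5, adjusted p = 4.68e-08), and 2 lower, both of Ccl9 (-0.47 with adjusted p = 0.0355, and -0.59 with adjusted p = 0.00839). That fit took an infinite prior, which gives all probe sets of like signal the same spread, and it called 404 probe sets higher and 267 lower, 1.5% and 0.988% of all. Deviations of same-numbered arrays from their group means correlated at 0.382, but with 2 pairs and no label on shared cultures the numbers are not known to pair the samples. Quantile normalization with the replicate block, chosen after seeing the data, called 537 higher and 366 lower, among them Ccl2 (1.30), Ccl7 (1.57), the dimmer Ccl9 probe set (-0.44) and Ccl24 (-1.78, adjusted p = 0.0221), so 2 chemokine probe sets were higher and 2 lower. The pathway lists had 6 genes higher and 2 lower with the block alone.

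Over all probe sets the 12 higher and 2 lower calls became 4 and 0 with the 60th percentile filter, 68 and 21 with no filter, 33 and 14 with median centring, 6 and 0 with a pseudocount of 100, 20 higher with a pseudocount of 1, 32 and 5 at an adjusted p of 0.1, and 0 and 0 with quantile normalization or no variance trend. Without single arrays they ranged from 0 to 77 and from 0 to 32. Without single arrays, chemokine probe sets called ranged from 0 to 1 higher (Ccl7, without LPS replicate 2), pathway genes from 0 to 1 higher and 0 to 1 lower, and chemokine probe sets at least 2-fold apart in all pairs left from 0 to 2 higher and 0 to 1 lower, where 1.2% to 13.9% and 0.585% to 2.47% of all probe sets reached that size. That last count was 1 higher with quantile normalization (0.755% of all), and 1 higher and 1 lower at 1.5-fold (2.1% and 0.87% of all). Each fit without an array has a lone array in one group, assumed to vary like the other group.

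Signs turned for 4 genes: Ccl3 (0.18 with quantile normalization, with or without the block), Ccl4 (0.01 likewise), Ccl17 (0.20 with a pseudocount of 1) and Ccl22. Without single arrays Ccl3 ranged from -0.17 to 0.11, Ccl17 from -1.07 to 0.97, Ccl22 from -0.67 to 1.30 and Ccl7 from 0.92 to 2.09. The cause was not tested. The median over all tested probe sets was 0.07, -0.13 with median centring and -0.03 with quantile normalization. Ccl17 was below the 60th percentile filter and has no value there. With 2 arrays per group and no detection calls, dim probe sets such as Ccl17 and Ccl24 have wide intervals.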
